A study of Mus musculus with 24 samples.

Results

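The genes described here encode the constitutive proteasome, the particle that degrades ubiquitin-tagged proteins, and were chosen by name alone. All gene names that begin with Psma to Psmg followed by a digit were taken, except Psmb8, Psmb9 and Psmb10, the catalytic subunits of the immunoproteasome, and names marked as pseudogenes. The rule found 47 genes of the 53715 in the table. Values were measured by RNA sequencing of blood monocytes from C57BL/6 mice of 8 to 10 weeks, in 24 libraries that fell into 6 groups of 4. Every animal carried the Cx3cr1 GFP reporter (Cx3cr1tm1Litt), which labels monocytes. In the N2 groups Notch2, a receptor of the Notch family, was targeted in cells that express lysozyme (Notch2tm1Frad lox/lox with Lyz2tm1(cre)Ifo), and the wt groups were littermate controls. The study describes this targeting as partial in Ly6Chi monocytes. Lyz2 Cre acts in monocytes, neutrophils and macrophages, so the deletion was not limited to the cells that were sorted. The IMQ groups received Aldara cream, 50 mg per mouse and day with 5% imiquimod, an agonist of the receptor TLR7, on depilated skin, and were sorted on day 5. The controls are labelled Sham and vaseline, and the methods of the study likewise describe a Sham cream, although their passage on sequencing speaks of untreated controls. Ly6Chi monocytes, the classical form, were taken from wt and N2 mice after Sham and after IMQ. Cells of the Ly6Clo gate, which in wt mice held the patrolling form, were taken from wt and N2 mice after IMQ. For N2 mice the study reports raised genes of mature phagocytes in this gate, so Ly6Clo names the gate below. No Ly6Clo Sham group was part of the samples, so the difference between the subsets could be read only under IMQ. Cells were gated as CD115+, CD11b+ and GFP+ and split by Ly6C, with MHC-II+ cells left out. Nothing in the labels says whether a library came from 1 animal or from a pool.

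A proteasome is built from a 20S core particle and 19S regulatory particles. The core is a barrel of alpha rings, which form the gate, and beta rings, in which Psmb5, Psmb6 and Psmb7 carry the chymotrypsin-like, caspase-like and trypsin-like activities. The regulatory particle binds tagged proteins, removes the ubiquitin and feeds the unfolded chain into the core with a ring of ATPases, Psmc1 to Psmc6. Chaperones (Psmg1 to Psmg4 for the core, Psmd5, Psmd9 and Psmd10 for the regulatory particle) help the parts to assemble, Psme1 to Psme4 are alternative caps that activate the core, and Psmf1 was first described as its inhibitor. In cells exposed to interferon, Psmb8, Psmb9 and Psmb10 replace Psmb5, Psmb6 and Psmb7 and form the immunoproteasome, which is known for making peptides for antigen presentation. The transcription factor Nfe2l1 is known to raise the proteasome subunit genes together when proteasome activity is short.

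Of the 47 genes, 43 reached a value of 50 in at least 1 library, as 11230 genes of the table did, and were tested. These 43 were 7 alpha ring subunits, 7 beta ring subunits, 6 ATPases, 11 other subunits of the regulatory particle, 3 and 4 assembly chaperones of the regulatory particle and the core, 4 activators and the inhibitor. The remaining 4 were Psma8, the testis form of an alpha subunit, at 1 to 28, Psmb11, the thymic beta subunit, at 0 to 2, Psme2b at 0 throughout, and Psmc3ip at 1 to 17, a recombination factor that matches the rule by its name and is no proteasome subunit. Values are read counts normalized by the authors to a common library size and rounded to whole numbers, and are called normalized counts below.

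The libraries fitted their labels. Notch2 lay at 12656 to 20005 normalized counts in the 12 wt libraries and at 7240 to 11518 in the 12 N2 libraries. Notch2 reads were thus lower but remained in every N2 library. These are counts over the whole gene, which do not show the deleted part by itself. Ly6c2 lay at 2370 to 9161 in Ly6Chi and at 12 to 382 in Ly6Clo libraries, the monocyte gene Csf1r at 14998 to 35788 throughout, and the T cell gene Cd3e at 0. The reads behind a library, inferred from the whole numbers that rounding left out or doubled, ranged from 9522720 to 19759572. The library names form 2 series, with replicates 1 and 2 of each group in the first and replicates 3 and 4 in the second. Same-numbered libraries deviated together (correlation over genes 0.16 to 0.62), but within a series the correlation was -0.12 to 0.26. For IMQ against Sham it was 0.0013 to 0.0214 in wt and -0.1163 to 0.0936 in N2 within a series. The replicate number thus carries mostly the series and was not shown to pair the samples beyond it. A second fit with the number as a block is given where it changes a call. Summed markers of other cells moved with some comparisons: the 9 neutrophil markers, of which 5 stayed under 50 everywhere and Ly6g at 0 or 1, summed to 708 to 1388 in Ly6Chi Sham, 3108 to 8597 in Ly6Chi IMQ and 36 to 335 in Ly6Clo libraries. Whether 1 replicate number is 1 animal, 1 day or 1 litter is not given, and p-values measure the spread between these libraries.

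The promoters of 7 members that passed a comparison below, and of Psmb5, are shown first, because a shared promoter element is one feature the name rule did not use. These members were picked after their values were seen, and the promoters of the others that passed are not shown. Each is the stretch of 160 bases before the RefSeq transcription start on the GRCm38.p6 build, written 5′ to 3′ along the gene, and capitals mark a match to any of 4 searched motifs: the antioxidant response element core TGACNNNGC, which Nfe2l1 and Nfe2l2 are known to bind, CCAAT (NF-Y), CCGGAA (the ETS core) and GCGCANGCG (nuclear respiratory factor 1), each on both strands.
Psmb5 chr14:54617996-54618155 (- strand): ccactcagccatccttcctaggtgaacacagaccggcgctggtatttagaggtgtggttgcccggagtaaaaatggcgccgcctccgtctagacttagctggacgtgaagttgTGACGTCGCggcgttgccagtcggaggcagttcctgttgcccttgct
Psmb6 chr11:70525197-70525356 (+ strand): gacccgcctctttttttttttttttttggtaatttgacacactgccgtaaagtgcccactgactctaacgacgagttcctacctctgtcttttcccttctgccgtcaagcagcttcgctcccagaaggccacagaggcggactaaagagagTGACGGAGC
Psmd14 chr2:61711534-61711693 (+ strand): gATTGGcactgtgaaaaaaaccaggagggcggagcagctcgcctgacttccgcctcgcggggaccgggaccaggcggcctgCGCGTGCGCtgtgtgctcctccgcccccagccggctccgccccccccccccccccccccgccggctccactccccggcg
Psmd8 chr7:29180674-29180833 (- strand): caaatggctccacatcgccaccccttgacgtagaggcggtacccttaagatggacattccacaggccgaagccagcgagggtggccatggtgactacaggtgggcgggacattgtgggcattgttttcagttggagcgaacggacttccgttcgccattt
Psmd2 chr16:20651492-20651651 (+ strand): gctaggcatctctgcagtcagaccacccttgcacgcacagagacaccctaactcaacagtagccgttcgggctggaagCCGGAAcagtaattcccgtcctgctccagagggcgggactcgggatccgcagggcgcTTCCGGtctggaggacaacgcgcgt
Psmd6 chr14:14120946-14121105 (- strand): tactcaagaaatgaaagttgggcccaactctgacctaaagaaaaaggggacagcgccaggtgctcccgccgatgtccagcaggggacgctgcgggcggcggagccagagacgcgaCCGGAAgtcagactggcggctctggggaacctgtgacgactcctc
Psmc6 chr14:45329664-45329823 (+ strand): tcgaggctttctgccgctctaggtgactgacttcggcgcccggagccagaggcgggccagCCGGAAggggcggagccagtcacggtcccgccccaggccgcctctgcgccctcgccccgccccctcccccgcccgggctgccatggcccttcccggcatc
Psmg4 chr13:34162804-34162963 (+ strand): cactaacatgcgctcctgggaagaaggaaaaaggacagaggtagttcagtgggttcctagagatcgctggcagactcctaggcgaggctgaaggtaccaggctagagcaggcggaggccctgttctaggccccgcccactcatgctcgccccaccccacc
In this window, Psmb5 held the antioxidant core 47 bases before the start and Psmb6 held it 9 bases before the start. Psmd2 held the ETS core at 82 bases and, on the opposite strand, at 25 bases, Psmd6 at 45 bases and Psmc6 at 100 bases before the start. Psmd14 held the nuclear respiratory factor 1 motif 79 bases before the start and CCAAT at 159 bases, both on the opposite strand, and Psmd8 and Psmg4 held none of the 4.

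A RefSeq promoter of 300 bases, from 250 before to 50 after the start, was on hand for 36 of the 43 tested members. The ETS core occurred in 20 of them (55.6%) and in 16.7% of the promoters of the 27025 genes with a RefSeq promoter. The nuclear respiratory factor 1 motif occurred in 7 (19.4%, 7.03% of all), the antioxidant core in 6 (16.7%, 14% of all) and CCAAT in 12 (33.3%, 41.1% of all). The 27025 genes were taken whether or not they were tested here, and the shares among tested genes were not computed. The 6 members with the antioxidant core were Psmb5, Psmb6, Psmc6, Psmd9, Psmd12 and Psme4, and in Psmc6 it lay 227 bases before the start, outside the printed stretch. A match is a run of letters and not a measured binding site, and the motifs do not overlap one another in the printed windows.

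Levels differed widely between the 43 tested members. Per kilobase of exon, which allows genes to be compared, the mean over the 24 libraries ran from 29.1 normalized counts for Psmd9 to 1981 for Psme1. Psme1, a subunit of the interferon-induced PA28 cap, was followed by the core subunit Psmb1 at 1371, the ubiquitin receptor Psmd4 at 799, the alpha subunits Psma4 and Psma7 at 671.1 and 652.7, and the core chaperone Psmg4 at 607.6, whose annotated exons span only 555 bases. The lowest of the tested members were chaperones and the inhibitor: Psmd9 at 29.1, Psmg3 at 29.2, Psmg1 at 36.3, Psmd10 at 37.0, Psmf1 at 38.8 and Psmd5 at 41.3. The subunits of the core and of the regulatory particle lay between 115.4, for Psmd11, and 1371. Together the members held 0.224% to 0.335% of all normalized counts of a library.

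The geometric mean of value + 1 over the 43 tested members gives their common level in a library. It was 513.8 ± 26.5 (SD, n = 4) in wt Ly6Chi Sham, 559.7 ± 40.6 in N2 Ly6Chi Sham, 632 ± 69.9 in wt Ly6Chi IMQ, 666.8 ± 76.5 in N2 Ly6Chi IMQ, 548.6 ± 33.7 in wt Ly6Clo IMQ and 597.7 ± 38.1 in N2 Ly6Clo IMQ. The Ly6Chi IMQ groups therefore stood highest and wt Ly6Chi Sham lowest, and both wt groups of Ly6Chi cells were clear of each other, at 499.5 to 553.5 after Sham and 574.1 to 731.5 after IMQ. Those of N2 overlapped, at 506.2 to 604.8 after Sham and 595.6 to 735.4 after IMQ. Over the 6 groups, 19 of the 43 members passed limma's moderated F-test (adjusted p up to 0.01), where 43.0% of all tested genes did. With the replicate block these were 34 members, where 57.1% of all genes passed.

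**Figure D1:**
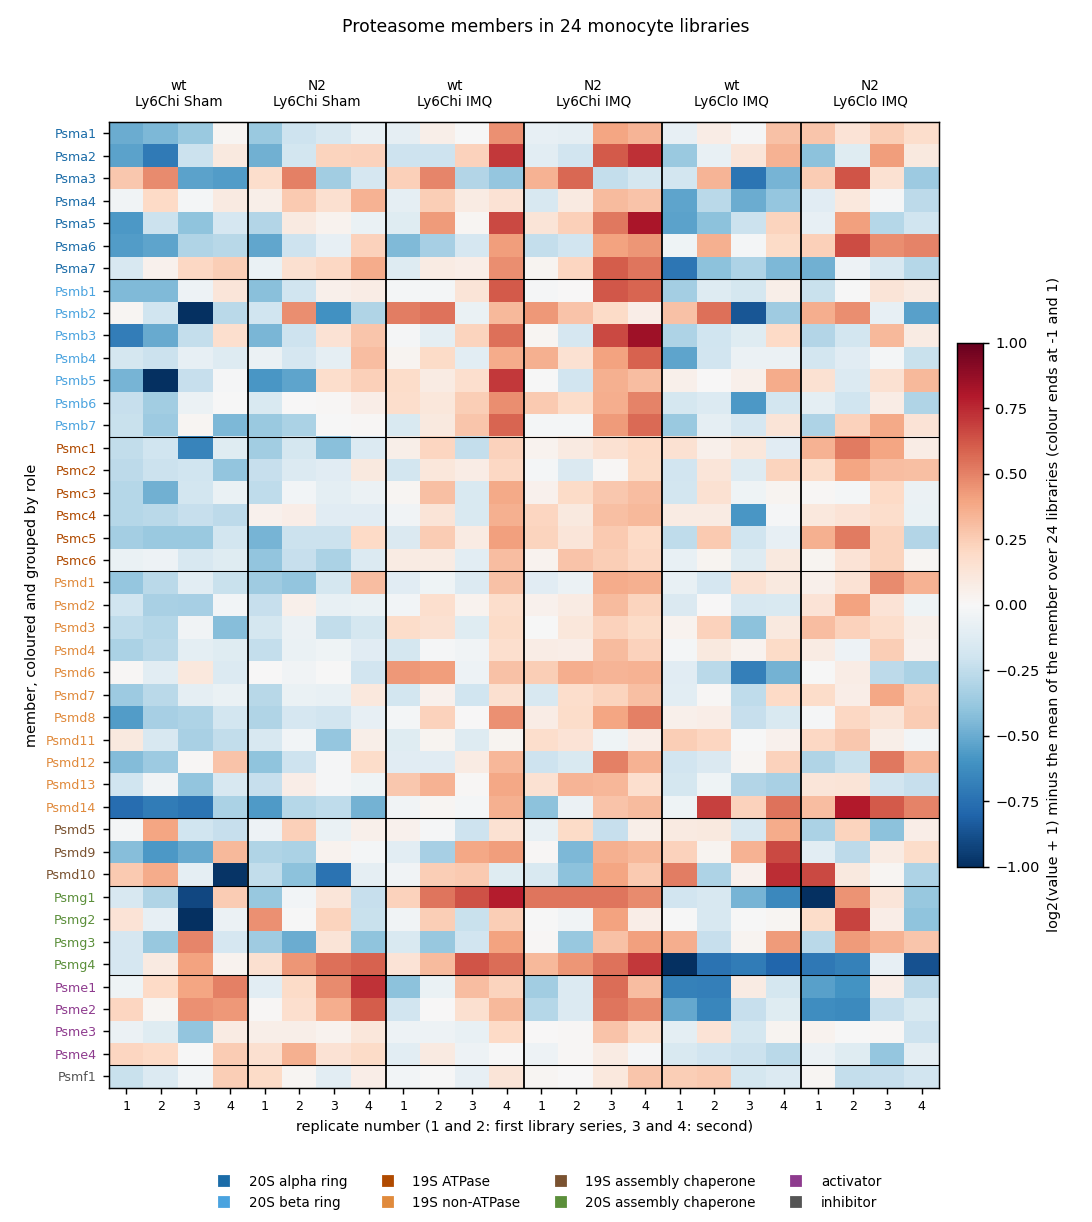
Deviation of each tested member (rows, by role) from its own mean over the 24 libraries, in log2(value + 1) by colour from -1 to 1, for each library (columns, by group and replicate). The geometric mean of the members was 632 in wt Ly6Chi IMQ and 513.8 in wt Ly6Chi Sham, and rows such as Psma2 and Psme1 differ between replicates 1 and 2 and replicates 3 and 4 in every group.

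The library series left its own mark on the members. In all 6 groups, 18 members were lower and 3 were higher in the first series than in the second. Psma2 was lower by a mean log2 difference of -0.60, Psme1 by -0.54, Psmb3 by -0.52 and Psmd12 by -0.47, whereas Psma3 was higher by 0.68, Psmb2 by 0.59 and Psmd11 by 0.15. The median over the members was -0.10. Each group held 2 libraries of each series, so the difference does not separate the groups.

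After skin treatment with IMQ, Ly6Chi monocytes of both genotypes had higher mean levels of nearly all core and regulatory subunits, and the members that rose past the threshold in both genotypes were Psmd8 and, less firmly when single libraries were left out, Psmb6. In wt mice the log2 fold change was positive for 39 of 43 members, with a median of 0.32 (interquartile range 0.14 to 0.44), whereas the median over all tested genes was 0.01 and 51.5% of them were positive. In N2 mice it was positive for 37 of 43, with a median of 0.29 (0.14 to 0.39), where 50.6% of all genes were positive and their median was 0.01. At an adjusted p up to 0.05 by limma, 6 members rose and none fell in wt cells, where 6.95% of all genes were higher and 8.65% lower. In N2 cells 8 members rose and none fell, where 6.73% were higher and 7.02% lower. With the replicate block 19 rose and 1 fell in wt (12.6% and 13.7% of all genes) and 17 rose and none fell in N2 (10.4% and 9.83%). Within the first and second library series the median over the members was 0.28 and 0.34 in wt and 0.19 and 0.35 in N2.

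**Figure D2:**
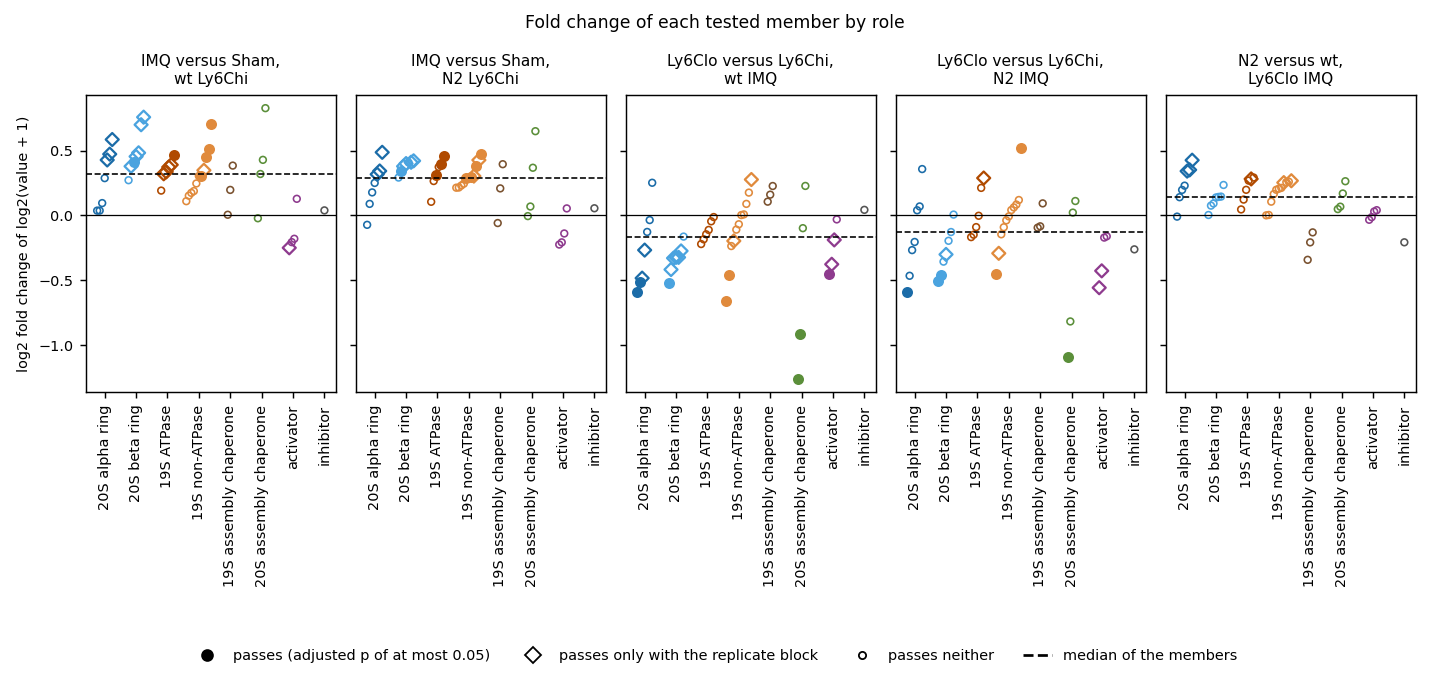
Log2 fold change of every tested member by role (colour) in the comparisons of treatment, subset and genotype, each symbol a gene. Filled circles passed without the replicate block, diamonds passed only with it, and dashed lines are medians over the 43 members. Core and regulatory subunits lie above 0 for IMQ against Sham, save for 1 alpha subunit in N2, with medians over all members of 0.32 in wt and 0.29 in N2, and 3 of 4 activators lie below 0.

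Ordered by role, all 7 alpha ring, all 7 beta ring, all 6 ATPase and all 11 other regulatory subunits had a positive fold change in wt cells, with medians of 0.29, 0.45, 0.35 and 0.30. In N2 cells these were 6 of 7, 7 of 7, 6 of 6 and 11 of 11, with medians of 0.25, 0.40, 0.34 and 0.29. The activators went the other way, with 1 of 4 positive in each genotype and medians of -0.19 and -0.17, and none of them passed without the block. In counts of libraries that did not overlap, 9 members were higher and none lower in wt (9.93% and 11.5% of all genes), and 12 were higher and 1, Psme4, lower in N2 (9.87% and 9.64%).

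Psmd14, the metalloprotease of the regulatory particle that cuts ubiquitin chains from the substrate, had the largest change among the members that passed in wt cells. The gene (ENSMUSG00000026914.15) lies at chr2:61711694-61800376 on the plus strand of GRCm38. It measured 293, 306, 300 and 400 normalized counts in wt Ly6Chi Sham and 485, 504, 490 and 636 in wt Ly6Chi IMQ, a log2 fold change of 0.70 ± 0.14 (SE) with an adjusted p of 0.00645. The groups did not overlap, and the change was 0.72 and 0.69 within the first and second series. In N2 cells it measured 335, 409, 417 and 359 after Sham and 375, 477, 607 and 618 after IMQ, where the groups overlapped and the change passed only with the block.

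Psmd8, a lid subunit of the regulatory particle, was higher after IMQ in all libraries of both genotypes. It measured 1171, 1371, 1397 and 1517 in wt Sham against 1700, 2030, 1729 and 2367 in wt IMQ (log2 fold change 0.51 ± 0.12, adjusted p = 0.0166). In N2 it measured 1401, 1532, 1515 and 1630 against 1816, 1964, 2264 and 2449 (0.47 ± 0.10, adjusted p = 0.0132). Psmd8 lies at chr7:29174188-29180701, on the minus strand.

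Psmb6, the caspase-like subunit of the core, lies at chr11:70525367-70527858 on the plus strand. It measured 592, 545, 666 and 693 in wt Sham and 782, 751, 824 and 959 in wt IMQ, a log2 fold change of 0.41 ± 0.11 (adjusted p = 0.0325). In N2 cells it measured 624, 696, 697 and 725 after Sham and 789 to 977 after IMQ, a change of 0.35 (adjusted p = 0.0392). No Sham library of Psmb6 reached the lowest IMQ library in either genotype.

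The other catalytic subunits, Psmb5 and Psmb7, had positive fold changes that did not pass without the block. Psmb5 measured 153, 92, 180 and 209 in wt Sham and 240, 223, 237 and 345 in wt IMQ, without overlap, and 141, 146, 238 and 249 in N2 Sham and 211, 185, 270 and 261 in N2 IMQ, with overlap. Its log2 fold change was 0.76 in wt (adjusted p = 0.0667, with the block 0.00642) and 0.29 in N2 (adjusted p = 0.46, with the block 0.191). Psmb5 had its lowest value, 92, in a wt Sham library, and in both Sham groups the first series lay below the second. Psmb7 measured 407, 369, 482 and 348 in wt Sham and 427, 508, 575 and 713 in wt IMQ, and 368, 381, 473 and 479 against 470, 469, 639 and 704 in N2, with overlapping groups in both. Its log2 fold change was 0.45 in wt (adjusted p = 0.0912, with the block 0.0365) and 0.41 in N2 (adjusted p = 0.134, with the block 0.0157).

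Further members passed in 1 genotype each without the block, which does not show that the genotypes differ. With the block, Psmd13 passed in N2 too (adjusted p = 0.0221), and Psmc1 (0.00466), Psmc3 (0.0187) and Psmd3 (0.0362) passed in wt too. In wt these were the ATPase Psmc5 (0.47 ± 0.13, adjusted p = 0.032), the lid subunit Psmd13 (0.45, 0.0207) and Psmd2, a base subunit that binds ubiquitin and its shuttles (0.30, 0.0489). Psmc5 measured 403, 394, 394 and 450 in wt Sham and 462, 608, 541 and 679 in wt IMQ, without overlap. In N2 these were the ATPases Psmc6 (0.46 ± 0.10, adjusted p = 0.0108), Psmc1 (0.39, 0.0192) and Psmc3 (0.31, 0.0435), the lid subunits Psmd6 (0.38 ± 0.08, 0.0129) and Psmd3 (0.30, 0.0474), and the ubiquitin receptor Psmd4 (0.29, 0.049). Psmc6 measured 527, 592, 558 and 632 in N2 Sham and 710, 845, 821 and 800 in N2 IMQ, and Psmd6 measured 719, 701, 716 and 628 against 851, 924, 910 and 913, both without overlap.

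No activator rose in either genotype, nor did the inhibitor. Psme1 measured 4085, 4851, 5546 and 5988 in wt Sham and 3175, 4024, 5232 and 4919 in wt IMQ, lower in each same-numbered pair, with a log2 fold change of -0.25 that passed only with the block (adjusted p = 0.356 without it, 0.0176 with it and 0.0536 with the library series as covariate). Psme4, the nuclear PA200 cap, measured 2317, 2646, 2291 and 2363 in N2 Sham and 1993, 2082, 2186 and 2055 in N2 IMQ. Psme4 in N2 cells was the member whose IMQ libraries all lay below its Sham libraries, a log2 fold change of -0.21 that did not pass (adjusted p = 0.101, with the block 0.0664). Psme2, the partner of Psme1, lay at 905 to 1228 in wt Sham and 780 to 1120 in wt IMQ, with overlap.

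The nuclear cap subunit Psme3 and the inhibitor Psmf1 passed in no pairwise comparison. Psme3 measured 794, 761, 627 and 873 in wt Sham and 796, 799, 783 and 947 in wt IMQ. Psmf1 measured 212, 225, 244 and 295 in wt Sham and 244, 247, 234 and 271 in wt IMQ. The groups overlapped for both genes, and the fold change of Psmf1 had opposite signs in the first and second series (0.17 and -0.09).

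**Figure D3:**
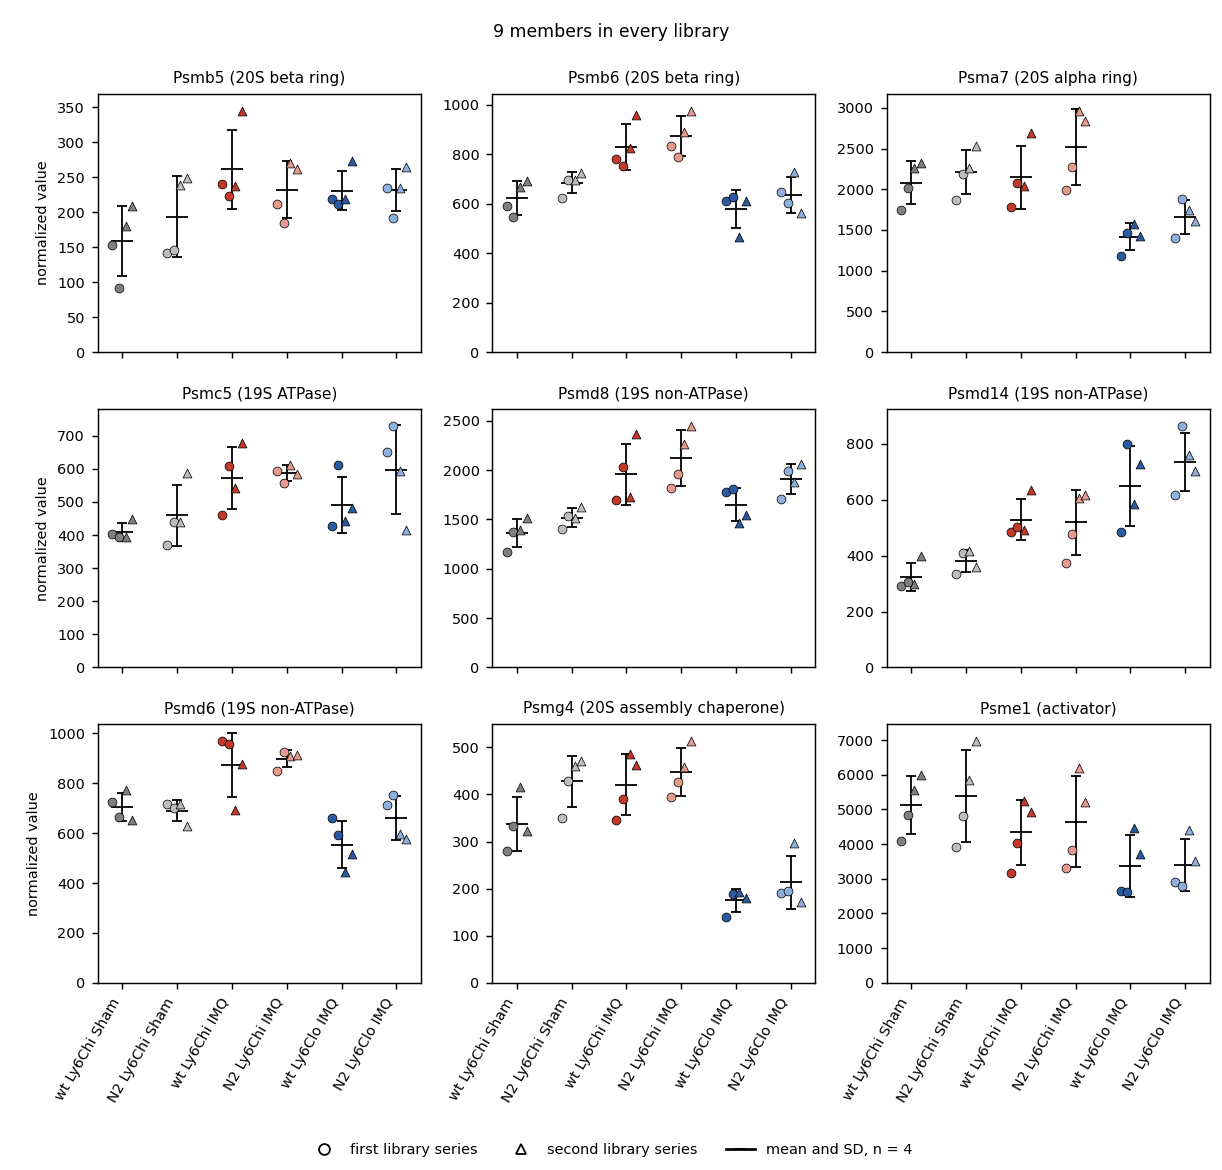
Normalized counts of 9 members (panels) in each of the 24 libraries, as circles for the first and triangles for the second library series, with the mean and SD of each group (n = 4). Psmd14 lies at 293 to 400 in wt Ly6Chi Sham and at 485 to 636 in wt Ly6Chi IMQ, and Psmg4 lies at 139 to 193 in wt Ly6Clo IMQ against 346 to 485 in wt Ly6Chi IMQ.

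How many members passed for IMQ depended on single libraries. In wt, leaving out 1 library at a time gave 2 to 9 members in place of 6, with 3 without Sham replicate 1 or 2 and 2 without IMQ replicate 2 or 4. In N2 it gave 3 to 7 in place of 8, with 3 without Sham replicate 1 or IMQ replicate 4, 4 without Sham replicate 3 or IMQ replicate 3 and 5 without Sham replicate 2 or IMQ replicate 2. Of these 8 fits in wt, Psmd14 passed in 8, Psmd8 in 7, Psmb6 and Psmd13 in 4 and Psmc5 and Psmd2 in 2. In N2, Psmd8, Psmc6 and Psmd6 passed in 8 of 8, Psmc1 in 6, Psmb6, Psmc3 and Psmd3 in 1 and Psmd4 in 0, so leaving out any single library ended the call of Psmd4 (adjusted p 0.0555 to 0.127), and that of Psmb6 had an adjusted p up to 0.112. Within the second series the Ly6Chi Sham libraries held 9522720 to 11625216 inferred reads and the Ly6Chi IMQ libraries 12260844 to 15593771, the neutrophil sum was higher in every IMQ library, and the 6 dendritic cell markers, of which 1 stayed under 50 everywhere, summed to 2623 to 4950 in Ly6Chi Sham and 826 to 1619 in Ly6Chi IMQ libraries. The 5 Ly6Chi monocyte markers summed to 33285 to 40522 in wt and 40050 to 48870 in N2 after Sham and to 42542 to 60202 and 56001 to 71274 after IMQ, without overlap in either genotype. The 7 macrophage markers, of which 1 stayed under 50 everywhere, summed to 3740 to 4538 after Sham and 2298 to 3106 after IMQ in wt, without overlap, and to 3431 to 5005 and 3367 to 4293 in N2. Of these, Mertk (10 to 36) and C1qa (0 to 9) were low in all Ly6Chi libraries. The part of these differences in the result was not tested. Since these are sums over sorted cells, a different mix of cells and a different level per cell cannot be told apart.

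Under IMQ, Psmg4, Psma7, Psmb6 and Psmd6 were lower in Ly6Clo than in Ly6Chi monocytes of both genotypes, past the threshold in each, with the largest difference for the core chaperone Psmg4. In wt mice the log2 fold change of Ly6Clo against Ly6Chi was negative for 32 of 43 members with a median of -0.16, where 50.6% of all genes were negative and their median was -0.01. In N2 mice it was negative for 29 of 43 with a median of -0.13, where 50.4% of all genes were negative and their median was -0.0051. Within the first and second series the median was -0.10 and -0.22 in wt and -0.02 and -0.26 in N2. In wt cells 8 members fell and none rose, where 17.3% of all genes were lower and 18.3% higher, so the share of members that fell was close to that of all genes. In N2 cells 5 fell and 1, Psmd14, rose, where 11.8% were lower and 13.0% higher. Fitted on the first series alone, 2 members fell and 3 rose in N2, where 1097 and 1483 of all 11230 tested genes did. On the second series alone 13 members fell and none rose, where 1710 and 1794 of all 11230 did. With the block 18 fell and 1 rose in wt (25.2% and 25.2% of all genes), and 9 fell and 2 rose in N2 (17.4% and 17.9%). Libraries did not overlap for 8 members lower and none higher in each genotype, where 17.1% and 18.3% of all genes did not overlap in wt and 13.0% and 14.8% in N2. The sum of the macrophage markers also moved without overlap. It was 2298 to 3106 in Ly6Chi IMQ and 3963 to 6133 in Ly6Clo IMQ libraries of wt, and 3367 to 4293 and 7748 to 11896 in N2. Of these markers, Mertk lay at 14 to 27 and 3 to 26 in wt, and C1qa at 2 to 7 and 0 to 26, both with overlap. In N2, Mertk lay at 28 to 36 and 184 to 376, and C1qa at 1 to 9 and 203 to 305. The part of the macrophage markers in the result was not tested.

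Psmg4, which with its partners joins alpha subunits into a ring, is encoded at chr13:34162964-34178173 on the plus strand. It measured 346, 391, 485 and 462 normalized counts in wt Ly6Chi IMQ and 139, 188, 193 and 181 in wt Ly6Clo IMQ, a log2 fold change of -1.26 ± 0.16 (SE, adjusted p = 1.4e-04). In N2 mice it measured 394, 426, 458 and 513 in Ly6Chi and 191, 196, 297 and 171 in Ly6Clo, a change of -1.09 (adjusted p = 0.00117). Every Ly6Clo library lay below every Ly6Chi IMQ library in both genotypes, and within the first and second series the change was -1.18 and -1.34 in wt and -1.08 and -1.1 in N2. Psmg1, another core chaperone, measured 54, 67, 72 and 80 in wt Ly6Chi IMQ and 40, 41, 33 and 29 in wt Ly6Clo IMQ, a change of -0.91 ± 0.25 (adjusted p = 0.0156) at low counts.

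Some subunits of the alpha and beta rings fell too. Psma7 measured 1785, 2073, 2041 and 2692 in wt Ly6Chi IMQ and 1186, 1467, 1579 and 1428 in wt Ly6Clo IMQ, a log2 fold change of -0.59 ± 0.13 (adjusted p = 0.00565). In N2 it measured 1990, 2269, 2967 and 2839 against 1403, 1885, 1745 and 1605, again a change of -0.59 (adjusted p = 0.0118). Psma4, also of the alpha ring, fell by 0.52 in wt (adjusted p = 0.00231), and Psmb4, of the beta ring, fell by 0.51 in N2 (adjusted p = 0.00731) and, with the block, by 0.33 in wt (adjusted p = 0.0155). Psmb6 measured 612, 629, 464 and 610 in wt Ly6Clo and 648, 603, 728 and 562 in N2 Ly6Clo, and fell by 0.52 in wt (adjusted p = 0.00833) and 0.46 in N2 (adjusted p = 0.0146). Under IMQ Psmb6 was thus higher in Ly6Chi than in Ly6Clo cells, without overlap, and Ly6Chi Sham cells lay near the Ly6Clo level.

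The lid subunit Psmd6 measured 969, 959, 692 and 879 in wt Ly6Chi IMQ and 662, 594, 445 and 516 in wt Ly6Clo IMQ, a log2 fold change of -0.66 ± 0.15 (adjusted p = 0.00578). In N2 Ly6Clo cells it measured 714, 755, 597 and 577, a change of -0.45 (adjusted p = 0.0138). Psmd13 and the cap subunit Psme2 also fell in wt. Psme2 measured 627, 569, 759 and 822 in wt Ly6Clo IMQ, where wt Ly6Chi IMQ lay at 780 to 1120, a change of -0.45 (adjusted p = 0.0344). This passed in 3 of 8 fits with 1 library left out (adjusted p up to 0.094). In N2 Ly6Clo it measured 580, 573, 761 and 801, a change of -0.56 that passed with the block (adjusted p = 0.064 without it and 0.00138 with it). Psmd13 likewise passed in N2 with the block (-0.29, adjusted p = 0.0452). Psme1 measured 2642, 2626, 4473 and 3722 in wt and 2895, 2785, 4417 and 3523 in N2 Ly6Clo IMQ. In Ly6Chi IMQ it lay at 3175 to 5232 in wt and 3311 to 6194 in N2, with overlap, and it did not pass without the block. All 4 activators had a negative change in both genotypes. With the block 3 of them passed in wt and 2 in N2, where 25.2% and 17.4% of all genes were lower.

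Psmd14 was the member with the opposite direction among those that passed. It measured 483, 800, 585 and 726 in wt Ly6Clo and 615, 864, 760 and 703 in N2 Ly6Clo, with a log2 fold change of 0.28 in wt (adjusted p = 0.221, with the block 0.0485) and 0.52 in N2 (adjusted p = 0.0486). The N2 call held in 3 of 8 fits with 1 library left out (adjusted p up to 0.116), and the change was 0.78 and 0.25 within the first and second series. With the library series as covariate in place of the block, the wt difference did not pass (adjusted p = 0.159). The catalytic subunit Psmb5 measured 219, 212, 219 and 273 in wt Ly6Clo and 234, 192, 235 and 265 in N2 Ly6Clo, where the Ly6Chi IMQ libraries lay at 223 to 345 and 185 to 270. In wt, 3 of the 4 Ly6Clo libraries were thus below the lowest Ly6Chi IMQ library, and in N2 none was.

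The ring subunits and the regulatory particle are set side by side here as levels, with no test. The geometric mean of the 14 ring subunits was 724.2 ± 103.7 (SD, n = 4) in wt Ly6Chi IMQ and 588.2 ± 57.0 in wt Ly6Clo IMQ, whereas that of the 17 subunits of the regulatory particle was 928.2 ± 99.4 and 856.9 ± 59.8. In N2 mice the rings were at 776.2 ± 113.4 and 664.9 ± 50.1 and the regulatory particle at 978.7 ± 80.2 and 972.7 ± 51.1. The sum per kilobase of the rings divided by that of the regulatory particle was 0.873 to 1.01 in wt and 0.894 to 0.989 in N2 Ly6Clo libraries. In Ly6Chi IMQ libraries it was 0.99 to 1.18 in wt and 0.991 to 1.204 in N2, and in Ly6Chi Sham libraries 1.035 to 1.148 in wt and 1.045 to 1.2 in N2. The Ly6Clo libraries of N2 lay just below all Ly6Chi libraries of N2, whereas those of wt overlapped with them. In role terms, 7 of 7 beta ring and 6 of 7 alpha ring members were negative in wt, with medians of -0.32 and -0.27, the ATPases were negative in 6 of 6 with a median of -0.13, and the other regulatory subunits split 5 positive to 6 negative with a median of -0.07. In N2, 6 of 7 beta ring, 4 of 7 alpha ring, 4 of 6 ATPase and 6 of 11 other regulatory members were negative, with medians of -0.30, -0.21, -0.05 and -0.0077.

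**Figure D4:**
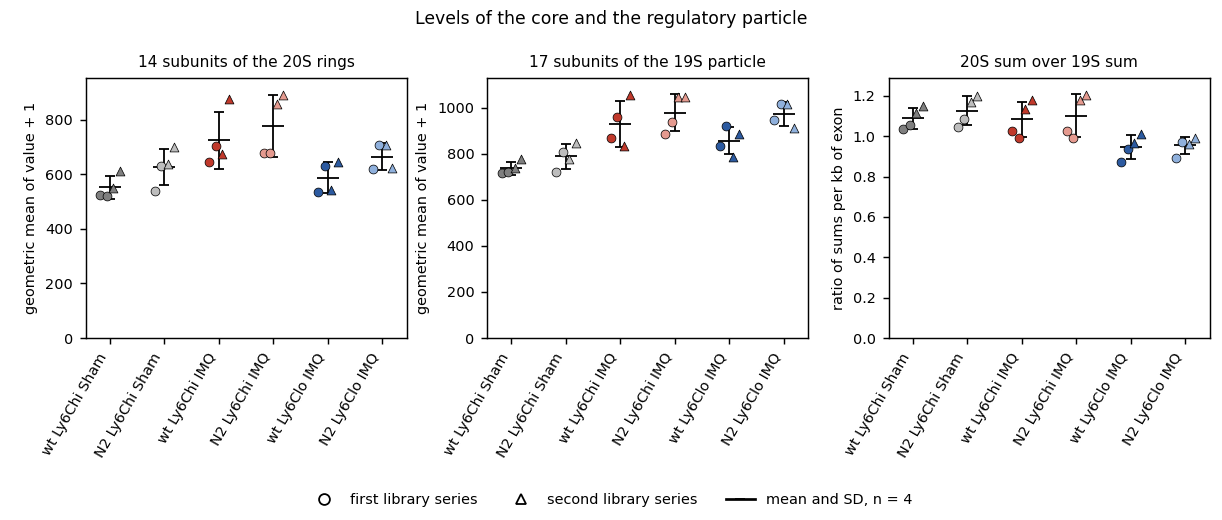
Geometric mean of value + 1 over the 14 ring subunits (left) and the 17 subunits of the regulatory particle (middle), and the ratio of their sums per kilobase of exon (right), in each library by group, with mean and SD (n = 4). The ring mean is 724.2 in wt Ly6Chi IMQ and 588.2 in wt Ly6Clo IMQ, and the ratio is at most 1.01 in Ly6Clo libraries.

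Targeting of Notch2 in myeloid cells moved no member past limma's threshold in any of the 3 comparisons of genotype, without the block. Among Ly6Clo IMQ cells none of 43 members passed, where 3.70% of all genes were higher and 2.71% lower in N2, and 5 members had an unadjusted p under 0.05. Among Ly6Chi IMQ cells none passed (0.0267% of all genes in either direction) and none had an unadjusted p under 0.05. Among Ly6Chi Sham cells none passed (0.0178% of all genes), and Psmc4 and Psmg4 had an unadjusted p under 0.05. The share of all genes with an unadjusted p under 0.05 was not computed, so such counts stand without a background, here and below. Other tools were not run.

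The log2 fold change of N2 against wt was positive for 36 of 43 members in Ly6Clo IMQ (median 0.14), 34 of 43 in Ly6Chi IMQ (median 0.08) and 39 of 43 in Ly6Chi Sham (median 0.14), where the medians over all genes were -0.0035, 0.01 and 0.01. Of all tested genes, 49.5%, 53% and 52.2% were positive, in the same order. Within the first and second series, 22 and 37 of 43 were positive in Ly6Chi IMQ, with medians of 0.01 and 0.18, so the first series alone showed no shift of the members there. The medians were 0.12 and 0.16 in Ly6Clo IMQ and 0.13 and 0.13 in Ly6Chi Sham. Summed markers moved with genotype in Ly6Chi cells too. The 6 Ly6Clo monocyte markers summed to 27270 to 31740 in wt and 19123 to 24600 in N2 after Sham, without overlap, and to 28095 to 41178 and 19689 to 28177 after IMQ. The macrophage markers after IMQ summed to 2298 to 3106 in wt and 3367 to 4293 in N2, without overlap, and the Ly6Chi monocyte markers were higher in N2 at both treatments, with overlap (33285 to 40522 and 40050 to 48870 after Sham). With the block, 6 members were higher in N2 Ly6Clo cells (8.38% of all genes higher, 8.12% lower), namely the alpha subunits Psma3, Psma4 and Psma6, the ATPase Psmc1 and the base subunits Psmd1 and Psmd2. With the library series as covariate in place of the block, Psma4 was the 1 member that passed (adjusted p = 0.0283). Psma4 had a mean of 1174 ± 96.2 (SD, n = 4) in wt and 1500 ± 161 in N2 Ly6Clo IMQ. With the block none passed in Ly6Chi IMQ (1.23% of all genes) or Ly6Chi Sham (0.0534%). In the Ly6Clo comparison summed markers moved too. The 5 Ly6Chi monocyte markers summed to 1829 to 3777 in wt and 8205 to 12522 in N2 Ly6Clo cells, without overlap, where Ly6Chi IMQ cells lay at 42542 to 71274. The 7 macrophage markers summed to 3963 to 6133 in wt and 7748 to 11896 in N2, with C1qa at 0 to 26 and 203 to 305, and the 6 Ly6Clo monocyte markers summed to 128008 to 148771 in wt and 75761 to 86107 in N2. The dendritic cell markers summed to 193 to 2141 and 1338 to 11805. The part of the markers in these results was not tested.

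Whether the IMQ effect differs between genotypes was tested as an interaction in limma over the 16 Ly6Chi libraries. No member and 0% of all genes passed, with or without the block, and the members with an unadjusted p under 0.05 were 0 without the block and 2 with it. Whether the difference between subsets depends on genotype was tested over the 16 IMQ libraries, where no member passed and 1.06% of all genes did (3.05% with the block). There too 0 members had an unadjusted p under 0.05 without the block and 2 with it. The members that passed in 1 genotype were therefore not shown to differ between the genotypes.

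The immunoproteasome subunits replace catalytic members 1 for 1, so the ratio of each pair within a library gives a measure that does not depend on library scaling. Per kilobase of exon, Psmb9 lay below Psmb6 in every library, at ratios of 0.278 to 0.629. Of gene values, which serve to compare libraries, the ratio was 1.05, 1.23, 0.869 and 1.02 in wt Sham, 0.574, 0.824, 0.671 and 0.567 in wt Ly6Chi IMQ and 1.02, 0.903, 1.2 and 0.966 in wt Ly6Clo IMQ. After IMQ the ratio was lower by a log2 difference of -0.66 in wt and -0.54 in N2, and in Ly6Clo against Ly6Chi it was higher by 0.64 and 0.62. The groups did not overlap in any of these 4 comparisons. The exact permutation test, two-sided over the 70 splits of 4 and 4, gave p = 0.0286 for each, the smallest it can give, and 0.12 after adjustment over the 21 tests of the family, so none passed.

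Psmb8 exceeded Psmb5 in every library, per kilobase by 4.36 to 12.1 times in wt Sham and 2.72 to 4.60 times in wt Ly6Chi IMQ, and as gene values by 22.2, 36.9, 14.5 and 13.3 times in wt Sham and 11.0, 14, 11.1 and 8.28 times in wt Ly6Chi IMQ. The log2 difference was -0.87 in wt (exact permutation p = 0.0571, adjusted 0.171) and -0.37 in N2 (exact permutation p = 0.343, adjusted 0.554). It was -1.20 and -0.53 within the first and second series in wt, and -0.73 and -0.0077 in N2. Without wt Sham replicate 2 the wt difference was -0.57, and the N2 difference was -0.21 without Sham replicate 1 or 2 and -0.58 without Sham replicate 3. Psmb10 exceeded Psmb7 by 2.22 to 3.48 times in wt Sham and 1.49 to 2.22 times in wt Ly6Chi IMQ, a difference of -0.49 (exact permutation p = 0.0571, adjusted 0.171), and by 2.29 to 2.78 and 1.68 to 2.08 times in N2, a difference of -0.42 (exact permutation p = 0.0286, adjusted 0.12). The tests are on ratios of gene values, whose differences between groups length does not change. Per kilobase, the ratio of Psmb10 to Psmb7 was 2.59 to 6.98 over all libraries. The levels of the immunoproteasome subunits themselves lay at 2435 to 3425 for Psmb8, 449 to 704 for Psmb9 and 602 to 1327 for Psmb10 over all libraries.

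**Figure D5:**
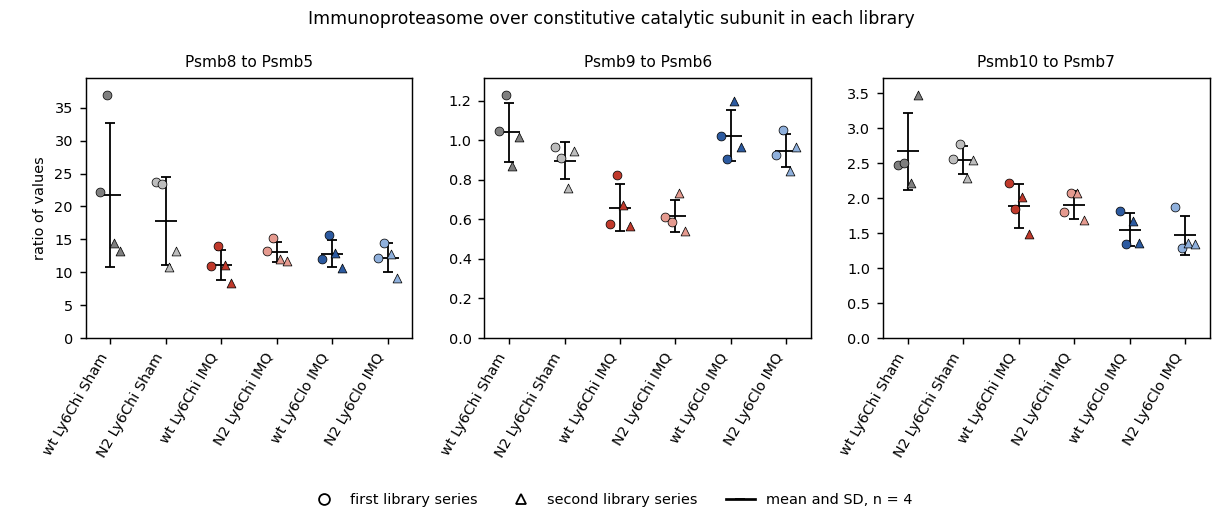
Ratio of each immunoproteasome subunit to the constitutive subunit it replaces (panels), in each library by group, with mean and SD (n = 4). The ratio of Psmb9 to Psmb6 has a mean of 1.04 in wt Ly6Chi Sham, 0.659 in wt Ly6Chi IMQ and 1.02 in wt Ly6Clo IMQ.

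Of 29 other genes of the pathway (immunoproteasome subunits, deubiquitinases, shuttles, ubiquitin genes, assembly and transcription factors), 27 were tested. None passed limma's test for IMQ against Sham in either genotype, and 2 in wt and 0 in N2 had an unadjusted p under 0.05. With the block, Sem1, a small subunit of the regulatory particle, Uchl5 and Usp14, the deubiquitinases that sit on it, were higher in wt by log2 changes of 0.32, 0.44 and 0.54, and Sem1 in N2, where 12.6% and 10.4% of all genes were higher, so neither share exceeded that of all genes. With the library series as covariate, Uchl5 (adjusted p = 0.0553) and Sem1 (0.05004) in wt did not pass. In Ly6Clo against Ly6Chi cells of wt mice 5 rose and 2 fell, where 18.3% and 17.3% of all genes did, so the share that rose was close to that of all genes. Those that rose were Nfe2l1 (0.74), the proteasome-binding zinc finger protein Zfand5 (0.66), Ngly1, which processes Nfe2l1 (0.59), the shuttle Ubqln4 (0.57) and Nfe2l2 (0.53), and those that fell were Psmb10 (-0.61) and the core assembly factor Pomp (-0.39). In N2 mice Zfand5 (0.81) and Nfe2l1 (0.68) rose and Psmb10 (-0.52) and Pomp (-0.33) fell, where 13.0% and 11.8% of all genes did. Of 8 limma fits with 1 library left out in N2, Zfand5 and Nfe2l1 passed in 8. Psmb10 passed in 4 (adjusted p up to 0.0634) and Pomp in 2 (adjusted p up to 0.096). With the block 7 rose and 5 fell in wt (25.2% and 25.2% of all genes) and 4 rose and 4 fell in N2 (17.9% and 17.4%). None of the 27 passed between genotypes without the block (2, 0 and 1 with an unadjusted p under 0.05 in Ly6Clo IMQ, Ly6Chi IMQ and Ly6Chi Sham), and with it Nfe2l2 was lower in N2 Ly6Clo cells (-0.30) and Zfand5 in N2 Ly6Chi IMQ cells (-0.37), where 8.12% of all genes were lower and 1.23% passed in either direction. Zfand5 did not pass with the series as covariate (adjusted p = 0.16).

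Reads of a few members may be shared with neighbours, since the strand setting of the counting is not given in the sources used here. On the opposite strand, Slc39a13 covered 8.2% of the exon bases of Psmc3, Sirt3 10.1% of those of Psmd13 and Nek6 11.8% of those of Psmb7. Over the 24 libraries Slc39a13 had a mean of 526 against 1295 for Psmc3, Sirt3 had a mean of 227 against 840 for Psmd13, and Nek6 30.3 against 486 for Psmb7. The 4 pseudogene rows left out by the rule reached at most 2, and reads that fit a processed copy and its parent equally could not be told apart.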

How the data were processed

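Total RNA of sorted blood monocytes was sequenced by the authors as single reads of 75 bases in 24 libraries (4 per group). Per the labels and the study's methods, the authors trimmed the reads with Trim Galore 0.4.4, aligned them with STAR 2.5.3a to GRCm38 with GENCODE genes in the nf-core/rnaseq pipeline, and normalized gene counts with DESeq2; the counter and its strand setting are not given in the sources used here. The deposited table holds these normalized counts, rounded to whole numbers and treated here as a score, so no count model was run although the plan allowed for one. It also holds the authors' comparison columns (log2 fold change, its error, Wald statistic, p-value and adjusted p), which were not used. Its gene positions and exon lengths were used as deposited.

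Comparisons used limma 3.58.1 in R 4.3.3 (lmFit, eBayes with trend) on log2(value + 1) over the 11230 genes with at least 50 in at least 1 library, on the libraries of the groups compared, with Benjamini-Hochberg adjustment over all of them. Fold changes are on that scale. A gene passed at an adjusted p of 0.05 or less, and in the F-test over the 6 groups of 0.01 or less. Scripts were tested on simulated data. Figures were drawn with matplotlib 3.10.9, and the other steps used scipy 1.17.1, pandas 2.3.3 and numpy 2.4.6 under Python 3.11.15. Library sums of 13273508 to 14651770 are not depths. Intervals that need raw counts were not computed.

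The replicate numbers of the labels were checked for pairing: in every comparison, same-numbered libraries deviated from their group means together (correlation over genes 0.16 to 0.62). Within a library series, the correlation ran from -0.12 to 0.26, so the pairing rests mostly on the series. The block adds the replicate number to the model.

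Members, gene lists, motifs and tests were chosen with earlier results of these data known. In each comparison up to 6 members with the largest change were named among those that passed with the same direction in both series. The catalytic subunits, Psmd14, the activators and the inhibitor were named by plan, and other members were named to complete a count or to give an extreme. Alternatives were other scalings, filters, pseudocounts, variance models, series fits, leaving out 1 library at a time and a minimum log2 fold change of 0.6. Promoters come from RefSeq on GRCm38.p6. Protein sequences were not used here.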

Additional observations from a re-analysis of the deposited data

Results flagged for a closer look

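Among 150 groups of 4 libraries, covering 22 named members and the 3 ratios, 11 held a library far from the other 3 by Dixon's criterion, where chance alone would give 7.5 at 1 in 20. Replicate 4 of wt Ly6Chi IMQ stood high for Psmb5 at 345, for Psmd14 at 636 and for Psme3 at 947, and it had the highest geometric mean of the members in its group. Replicate 4 of wt Ly6Chi Sham stood high for Psmc5 at 450 and Psmd14 at 400. In wt Ly6Clo IMQ, replicate 4 was high for Psmb5 at 273, replicate 3 was low for Psmb6 at 464 and replicate 2 was high for Psmd2 at 1765. In N2 Ly6Clo IMQ, replicate 1 was high for Psmf1 at 251 and for the ratio of Psmb10 to Psmb7 at 1.88. In N2 Ly6Chi IMQ, replicate 4 of Psmg1 was at 64 where the others were all at 67, a gap of few counts. What sets these libraries apart was not tested.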

How the results depend on the processing

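The counts of members that passed depended on the model. Of 156 recomputed counts of members 126 stayed within 1.5 times, and of 384 recomputed calls of the members named for passing 320 kept their side of the threshold. None of these reversed, but within the series that was set by choosing members with 1 direction in both. Among members named by plan, several differed in sign between the first and second series. For IMQ in wt this was Psmf1 (0.17 and -0.09). For IMQ in N2 these were Psme2 (-0.30 and 0.02), Psme3 (-0.05 and 0.16) and Psmf1 (-0.10 and 0.21). For the subsets in N2, Psmb5 did so too (0.10 and -0.09). The list is complete only for IMQ against Sham. For the F-test over the 6 groups (19), the replicate block gave 34 and fits within the first and second series 10 and 9. For IMQ in wt (6), quantile normalization gave 10, no filter 1, no variance trend 3, the replicate block 20, the series as covariate 19, the second series alone 0, all 24 libraries in 1 fit 13 and a minimum log2 fold change of 0.6 1. For IMQ in N2 (8) no filter gave 4, no trend 5, the block 17, the series as covariate 20, the first series alone 0 and the minimum fold change 0. For the subsets in wt (8), quantile normalization gave 13, the block 19, the second series alone 5 and the minimum fold change 3. In N2 (6, of which 1 higher and 5 lower), the first series alone gave 5, of which 3 higher and 2 lower, the block gave 11, the series as covariate 13, the second series alone 13, all libraries 10 and the minimum fold change 1. For N2 against wt in Ly6Clo cells (0), scaling to the total gave 1, the block 6, the series as covariate 1 and all libraries 1. The block changed no call in the other comparisons of genotype or in the interactions. Leaving out 1 library gave 14 to 20 in the F-test, 2 to 9 and 3 to 7 for IMQ in wt and N2, 7 to 9 and 5 to 6 for the subsets in wt and N2, and 0 in the other comparisons. The fits within 1 series rest on 2 libraries a group; other causes were not tested. No ratio passed in any setting; since the smallest exact p gave 0.12 after adjustment and the paired sign-flip test cannot go below 0.125, this says nothing about their stability. Psmg1, at 17 to 80 over the libraries, is a member of low counts, and whether depth limited any call was not tested.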
